A study of Mus musculus with 5 samples.

Results

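Nerve sheath cells of the Hic1 lineage were 53 of 17085 filtered cells (0.310%, exact 95% interval 0.232 to 0.406%) in 5 single-cell libraries of mouse hindlimb muscle. A cell was a member when it held at least 4 unique molecular identifiers (UMIs), summed over Sbspon, Tenm2, Cldn1, Itgb4, Col9a2 and Slc27a1, from at least 3 of these 6 genes. Cells entered the filtered set with 500 or more genes detected and with mitochondrial transcripts making up no more than 10% of their UMIs. Cells with 5 or more UMIs of the tendon cell genes Tnmd, Fmod, Kera and Chad (1394 cells), of the genes Rgs5, Kcnj8, Abcc9 and Higd1b of mural cells, which wrap small vessels (608 cells), or of both (6 cells) were set aside, which left 15024 other cells. The members were thus chosen on their measured counts, so every difference from the other cells below is a description with no test.

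All groups were C57BL/6J mice of genotype Hic1CreERT2/CreERT2;Rosa26LSLtdTomato/+. Both Hic1 alleles carried the tamoxifen-inducible recombinase, and 1 allele of Rosa26 carried the red fluorescent reporter tdTomato, which stays on in cells that expressed Hic1 and in their descendants. Mice of 8 weeks received 2.5 mg of tamoxifen in 100 uL on each of 5 days, followed by a washout of 10 days. Cells labelled mesenchymal progenitors were purified by flow cytometry from whole hindlimb muscle on day 1, 2, 4 or 14 after injury with notexin, a snake venom phospholipase that destroys muscle fibres, or without injury (quiescent). Each time point was 1 library of 10x Chromium 3' v2, so no value has a replicate, and how many mice each library holds is not given in the labels.

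A peripheral nerve has 3 sheaths. The epineurium is an outer layer of loose collagen, the perineurium wraps each fascicle in flat cells joined by tight junctions and lined by a basement membrane, and the endoneurium fills the space between the axons, where Schwann cells make myelin and fibroblasts lie between them. The perineurium acts with the vessels of the endoneurium as the blood-nerve barrier, and glucose crosses it through the transporter Slc2a1. In the mouse it forms under Desert hedgehog from Schwann cells, which the receptor Ptch1 binds.

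The 5 libraries held 17213 barcodes and 8043771 to 44552329 UMIs each, with a median depth per barcode of 3736 to 10739 UMIs. The nerve sheath cells held 247127 UMIs in all. Of the 53, 10 came from the quiescent library, 1 from day 1, 4 from day 2, 2 from day 4 and 36 from day 14, so day 14 gave 67.9%. Although 153 cell barcodes occurred in 2 or more libraries, 0 of the members' barcodes did. Median depth was 3780 UMIs in the 36 nerve sheath cells of day 14 and 4951 in the 2388 other cells.

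The selection genes do different work. Sbspon encodes a secreted protein with a somatomedin B and a thrombospondin type-1 domain, Cldn1 a tight junction claudin, Itgb4 the integrin chain that pairs with Itga6 to bind laminin, Tenm2 a teneurin of cell contacts, Col9a2 a chain of collagen IX, and Slc27a1 a fatty acid transporter. Sbspon, on the minus strand of chromosome 1 at positions 15853862 to 15892722 of GRCm38, the build also called mm10, was detected in 50 of the 53 cells with 271 UMIs. Cldn1 was in 36 cells (81 UMIs), Slc27a1 in 33 (55 UMIs), Itgb4 in 28 (76 UMIs), Tenm2 in 25 (61 UMIs) and Col9a2 in 18 (89 UMIs). Each cell held 4 to 60 UMIs of the 6 genes. At day 14 Sbspon had a UMI in 34 of 36 nerve sheath cells, in 0.628% of the other cells and in 6.58% of the mural cells set aside, whose median depth was 2786 UMIs. Outside the nerve sheath cells of day 14 it was therefore more frequent in mural cells than in the other cells. The same held in the quiescent library (1.79% against 0.265%) and at day 2 (2.38% against 0.0832%). At days 1 and 4 it was in 0% of mural cells, against 0.132% and 0.184% of other cells. The rule took some cells with Sbspon out of the other cells and not out of the mural cells, so the 2 groups are not like for like.

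The 6 genes did not all come together. Col9a2 shared a cell with Itgb4 in 1 case and with Tenm2 in 1 case, while Itgb4 and Tenm2 shared 20 cells. Itgb4 and Cldn1 shared 25, Col9a2 and Slc27a1 shared 14, and Col9a2 and Cldn1 shared 5. Of the members, 31 had exactly 3 of the 6 genes, the minimum for entry. The promoters of 2 selection genes, Cldn1 and Col9a2, are given as RefSeq lists them on GRCm38.p6. They run from 250 bases before the transcription start to 50 after it and read 5' to 3' along the gene's strand. Capitals mark GC boxes, the letters GGGCGG on either strand, which bind Sp1-type factors. The Cldn1 promoter lies at chr16:26371790-26372089 on the minus strand and that of Col9a2 at chr4:121039316-121039615 on the plus strand.
Cldn1: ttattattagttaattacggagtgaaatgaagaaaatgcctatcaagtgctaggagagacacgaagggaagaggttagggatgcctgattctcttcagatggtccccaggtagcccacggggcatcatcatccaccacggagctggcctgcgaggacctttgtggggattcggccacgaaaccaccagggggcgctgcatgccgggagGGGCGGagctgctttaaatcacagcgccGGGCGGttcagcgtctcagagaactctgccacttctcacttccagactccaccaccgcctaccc
Col9a2: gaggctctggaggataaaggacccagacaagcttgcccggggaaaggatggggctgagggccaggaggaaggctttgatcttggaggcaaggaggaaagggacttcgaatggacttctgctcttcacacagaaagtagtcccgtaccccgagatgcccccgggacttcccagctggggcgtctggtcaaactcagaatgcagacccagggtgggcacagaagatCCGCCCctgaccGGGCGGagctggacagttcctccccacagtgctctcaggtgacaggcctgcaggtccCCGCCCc
The window held 2 GC boxes at Cldn1 and 3 at Col9a2. The motif occurs in 35.7% of the 32851 mouse promoters in the same table, so its presence is common and sets neither gene apart.

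By Itgb4, Tenm2 and 5 Schwann cell genes the nerve sheath cells were divided into 3 sets, drawn after the values were seen. Cells with 2 or more UMIs of the Schwann cell genes went to the third set, whether or not they had Itgb4 or Tenm2. The first, 25 of the remaining cells with Itgb4 or Tenm2, came from the quiescent library (7 cells), day 2 (2), day 4 (2) and day 14 (14). The second, 19 cells with neither gene, came from the quiescent library (3), day 2 (1) and day 14 (15). The third, 9 cells with 2 or more UMIs summed over 5 Schwann cell genes, among them Sox10, Mbp and Cdh19, came from day 1 (1), day 2 (1) and day 14 (7). Itgb4 was in 6 of these 9 cells and Tenm2 in 6. At day 14 median depth was 3269 UMIs in the first set, 4199 in the second and 7640 in the third, against 4951 in the other cells. At day 14, 7 of the 36 nerve sheath cells but 6 of the 2388 other cells had 2 or more UMIs of these Schwann cell genes. The part of barcodes that hold 2 cells in the third set, the deepest of the 3, was not tested.

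**Figure D1:**
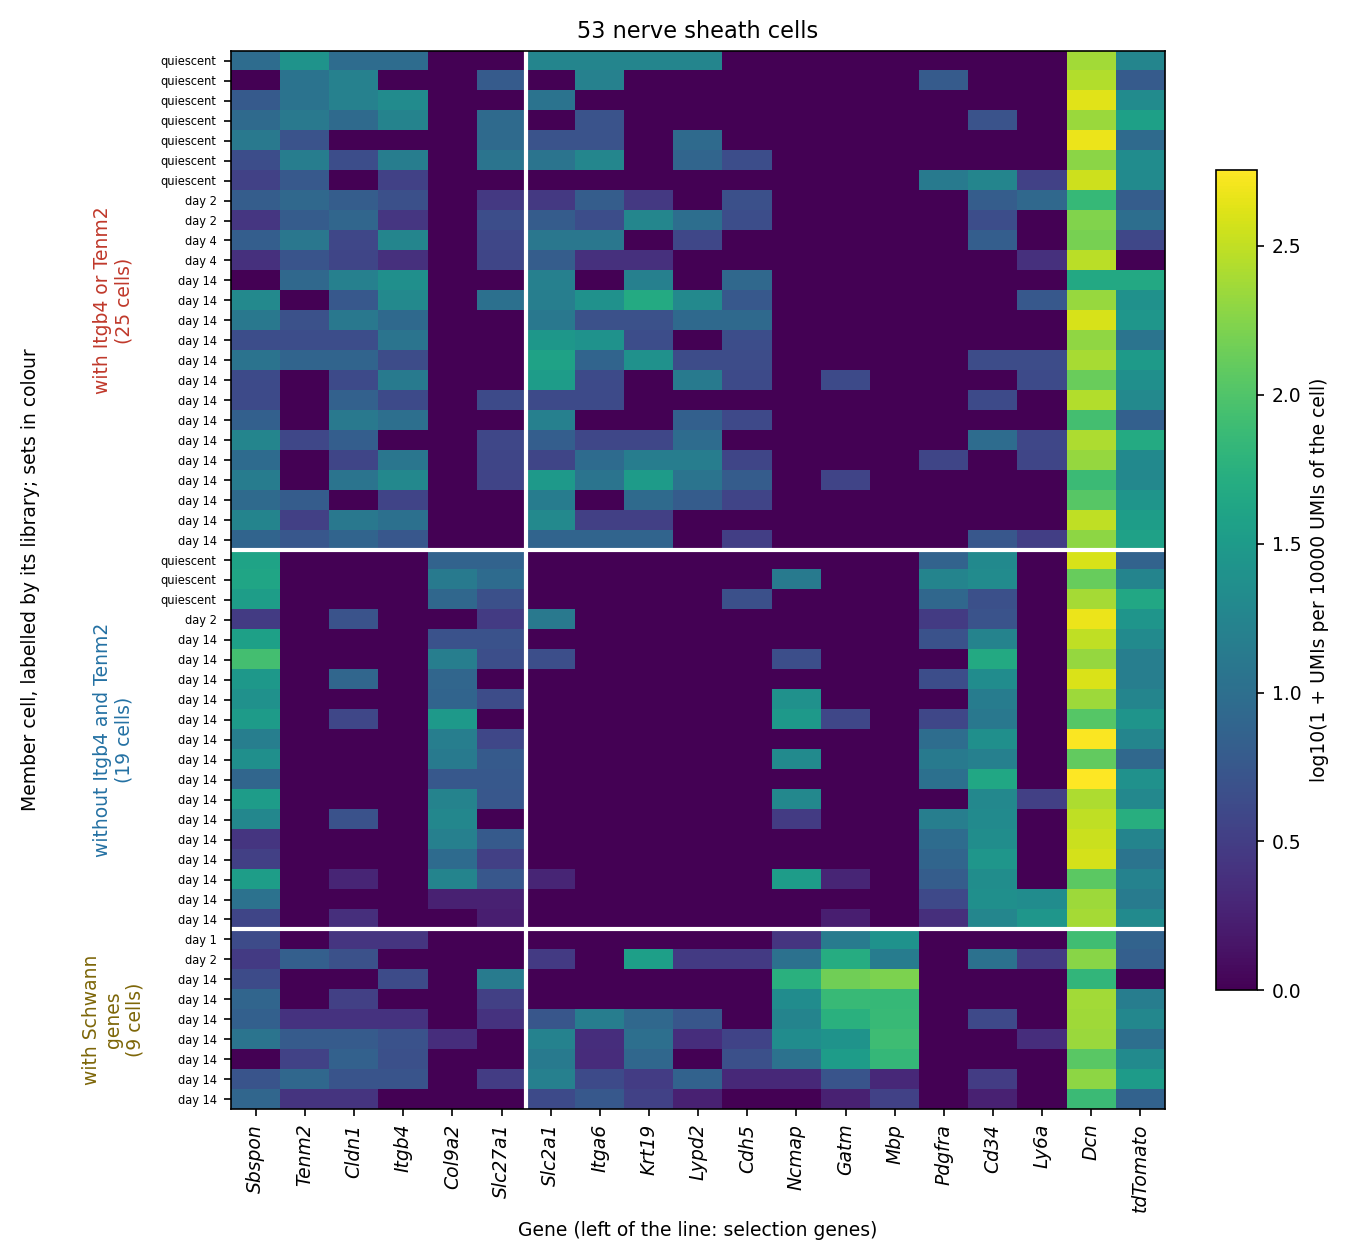
Level of 19 genes in each of the 53 nerve sheath cells (rows, labelled by library and ordered by set), as log10 of 1 plus UMIs per 10000 UMIs of the cell. Selection genes stand left of the white line. Col9a2, Pdgfra and Cd34 lie mainly in the 19 cells without Itgb4 and Tenm2, Slc2a1, Itga6 and Krt19 mainly in the other sets, and Mbp in the 9 cells with Schwann genes.

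Perineurial genes that played no part in the selection rule were read in each set. They were Slc2a1, Msln, Lypd2, Krt19, Tjp1, Ocln, Mpzl2, Ntng1, Itga6 and Perp. This list was chosen with earlier results of these data known, so it is no independent check of the label. Levels are counts per 1000000 UMIs (CPM) of the summed cells. Their summed level was 3809 CPM in the cells with Itgb4 or Tenm2, 210 CPM in the cells without both and 2183 CPM in the cells with Schwann genes, against 74.2 CPM in other cells weighted to the same libraries. Slc2a1, the glucose transporter of the perineurium, was in 22 of 25, 3 of 19 and 6 of 9 cells of the 3 sets. Itga6, the partner chain of Itgb4, was in 20 of 25, 0 of 19 and 5 of 9, and Krt19, a keratin, in 15 of 25, 0 of 19 and 6 of 9. The perineurial genes thus lay in the first set and unevenly in the third, and the second carried few of them. In the third set, the day 1 cell and the day 14 cells of 3108 and 4356 UMIs had 0 UMIs of Slc2a1, Itga6 and Krt19. These cells held 25, 189 and 75 UMIs of the 5 Schwann cell genes. Only part of the 53 cells therefore matched the perineurial markers.

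The second set had other genes. It held 53 UMIs of Pdgfra, the receptor that marks mesenchymal progenitors, in 16 of 19 cells, against 7 UMIs in 3 of 25 cells with Itgb4 or Tenm2. Cd34, a sialomucin of progenitors, stood at 2047 CPM in the cells without Itgb4 and Tenm2 and at 263 CPM in the cells with either. Sparcl1, a matricellular protein, had 241 UMIs in 19 of the 19 cells without Itgb4 and Tenm2 and 6 UMIs in 4 of the 25 with either (33.6-fold higher, counting interval 15.2 to 92.4). Cxcl14, a chemokine, had 83 UMIs in 13 of 19 cells and 0 in the 25. Pdgfrl, a PDGF receptor-like protein, had 70 UMIs in 17 of 19 cells and 0 in the 25, and Coch, the matrix protein cochlin, had 56 UMIs in 8 of 19 and 0 in the 25. Ptn, the growth factor pleiotrophin, had 42 UMIs in 13 cells against 0, and Gjb1, the gap junction protein connexin 32, had 61 UMIs in 6 cells against 0. Sbspon, which both sets held, is a selection gene. The genes from Sparcl1 to Gjb1 were singled out after their values were seen. Their difference between the sets is therefore a description, in part fixed by that choice. All 106 UMIs that the second set held of Clec3b, an epineurial and adventitial fibroblast gene, lay in 2 of the 19 cells, both at day 14.

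In the first set, leaving out the selection genes Itgb4 and Tenm2, the genes with most UMIs and none in the second were Krt19 (60 UMIs), Rasd1, a Ras-like GTPase (56), Gjb2, connexin 26 (53 UMIs, in 4 of 25 cells), Itga6 (51) and the complement gene C2 (48 UMIs, in 18 of 25 cells). Cav1, the coat protein of caveolae, had 96 UMIs in 24 of 25 cells, against 1 UMI in the 19 cells without Itgb4 and Tenm2. Bcam, a receptor for the laminin alpha 5 chain, had 35 UMIs in 14 of 25 cells, against 0 in the 19. Wnt6, a secreted Wnt ligand, had 15 UMIs in 11 of 25 cells, against 0. Of 1027 genes with at least 200 CPM in either set, 192 (18.7%) were at least 2-fold higher in the cells with Itgb4 or Tenm2 than in those without, and 131 (12.8%) were at least 2-fold lower. The dissociation stress genes moved with this division, at a sum of 31140 CPM in the first set, 10554 CPM in the second, 16339 CPM in the third and 9159 CPM in the other cells, and their part in it was not tested. Fos, an early response factor, alone stood at 9875, 2117 and 4650 CPM in the 3 sets.

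**Figure D2:**
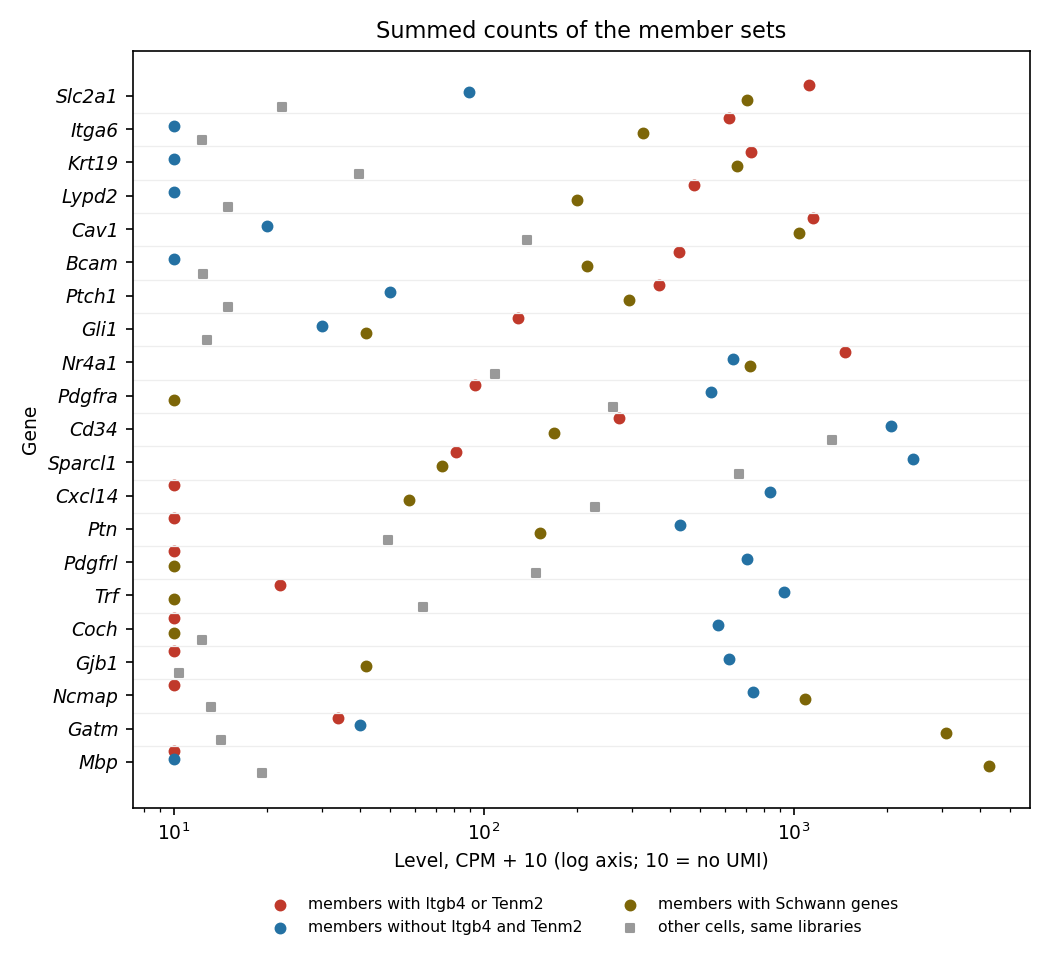
Levels of 21 genes in the summed counts of the 3 member sets (circles) and of the other cells weighted to the members' libraries (squares), in CPM plus 10 on a log axis. Cxcl14, Pdgfrl and Coch had 0 UMIs in the cells with Itgb4 or Tenm2, Itga6, Krt19 and Lypd2 had 0 in the cells without, and Mbp had 0 in both of these sets; the set with Schwann genes was drawn on Mbp among others.

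Clusters built without the 6 selection genes separated the sets in part, at day 14 and not with all libraries together. With all libraries together, 1 cluster of 143 cells held 49 of the 53 members (92.5%), namely 24 with Itgb4 or Tenm2, 17 without both and 8 with Schwann genes. The members made up 34.3% of this cluster. Its leading genes included Mbp, Gatm, Ncmap, Sfrp5 and the myogenic gene Cdh15, in 9.09%, 16.1%, 16.1%, 22.4% and 10.5% of its cells. Cdh15 had 0 UMIs in the members. With day 14 alone, 1 cluster of 40 cells held 21 of the 36 members, namely all 14 with Itgb4 or Tenm2 and all 7 with Schwann genes, so these 2 sets were not separated. Another of 32 cells held 13 of the 15 without Itgb4 and Tenm2. Slc2a1 was in 80.0% of cells of the first cluster and 15.6% of the second, Itga6 in 70.0% and 0%, Pdgfra in 2.50% and 81.3%, and Col9a2 in 2.50% and 65.6%. Both clusters also held cells that were not members.

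Around the entry limit, 3 members had exactly 4 UMIs from 3 genes. Just outside, 7 cells had 3 UMIs from 3 genes and 16 had 4 or more UMIs from 2 genes. Slc2a1 was in 1 of the 3, 2 of the 7 and 9 of the 16, and Itga6 in 0, 3 and 8 of them.

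Within the day 14 library, the 36 nerve sheath cells (185376 UMIs) were set against the 2388 other cells (12266084 UMIs). Of 6997 genes with at least 20 CPM in either group, 927 (13.2%) were at least 2-fold higher in nerve sheath cells and 494 (7.06%) were at least 2-fold lower. Without the 7 cells with Schwann genes, 965 (13.8%) of 7002 genes were higher and 540 (7.71%) lower, and with the libraries pooled 1158 (16.6%) of 6992 were higher and 542 (7.75%) lower. Pooling did not weight the libraries. Day 14 gave 185376 of the 247127 UMIs of nerve sheath cells, while day 1 gave more UMIs of other cells (42673008) than day 14. Pooled counts here and below thus also hold differences between time points. With other cells weighted to the members' libraries, 829 genes were higher and 447 lower. Log2 ratios were taken after 10 CPM was added to both groups. With TMM scaling, which corrects for differences in RNA composition between groups, the numbers were 560 higher and 837 lower, so the balance between higher and lower depends on the scaling. The median log2 ratio of all these genes was 0.25, and TMM scaling moved that median by -0.31. The limit of 20 CPM is worth few UMIs in 36 cells, so the genes named below are those with more.

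Slc2a1 had 118 UMIs in 21 of the 36 nerve sheath cells, at 637 CPM, against 12.5 CPM in the other cells (51.0-fold, interval 39.8 to 65.3). It had a UMI in 5.07% of the other cells. After thinning to 2500 UMIs a cell, with shallower cells left out, it had a UMI in 17 of 34 nerve sheath cells, in 2.21% of other cells and in 4.32% of mural cells. Itga6 stood at 264 CPM in 16 of 36 nerve sheath cells, against 2.69 CPM in other cells (98.3-fold, 61.9 to 158). Stra6, a receptor for retinol binding protein, had 41 UMIs in 17 nerve sheath cells (221 CPM), against 0.815 CPM in other cells. Fxyd6, a regulator of the sodium pump, was in 35 of 36 nerve sheath cells at 2881 CPM, against 135 CPM in other cells (21.3-fold, 19.2 to 23.5). Over all libraries Fxyd6 was in 25 of 25, 18 of 19 and 9 of 9 cells of the 3 sets, at 2448, 3325 and 1882 CPM, against 126 CPM in other cells of the same libraries. Csrp1, a LIM domain protein, was in 33 of 36 nerve sheath cells at 1208 CPM, against 55.6 CPM in other cells, and Ldhb, a lactate dehydrogenase chain, was in 27 at 512 CPM (25.7-fold higher).

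Several of the genes furthest above the other cells rested on few cells. Mbp, myelin basic protein, had 247 UMIs in 7 of the 36 nerve sheath cells, and Gatm, an enzyme of creatine synthesis, had 167 in 12. Gjb2 had 56 UMIs in 6 cells, 46 of them in 1 cell, and Gjb1 had 62 in 7 cells, 36 of them in 1 cell. Without the 7 cells with Schwann genes, the log2 ratio was -1.08 for Mbp, -0.33 for Fxyd3 and 1.70 for Gatm, against 5.99, 4.33 and 5.97 with them. For Mbp that follows from the way the cells were left out. Ncmap, a myelin-associated membrane protein, kept a log2 ratio of 5.25 without them (5.68 with them), and it had 73 UMIs in 8 of the 19 cells without Itgb4 and Tenm2.

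The other genes named as highest were Plekhb1, Rgs16, Lgals7, Coch, Sfrp5, Rasd1, Pla2g7, S100b, Moxd1 and Ctxn3, with log2 ratios of 3.94 to 5.08. The genes named as lowest were Dpep1, Inmt, Aspn, Cxcl12, Gpx3, Eln, Has1, Gas1, Hmcn2, Ifi204, Wisp2 and Hsd11b1. Cxcl12, a chemokine that mesenchymal cells secrete, stood at 48.5 CPM in nerve sheath cells, against 863 CPM in other cells (17.8-fold lower, 9.36 to 38.9). Dpep1, a membrane dipeptidase, stood at 21.6 CPM in nerve sheath cells, against 604 CPM in other cells, where 74.7% of cells had a UMI. Gpx3, a secreted glutathione peroxidase, had 14 UMIs in 4 of the 36 nerve sheath cells, 11 of them in 1 cell, and its level depended on the cells taken. Its log2 ratio was -3.85 at day 14, -5.66 without the 3% of cells of highest UMI total and -2.56 when 3 UMIs from 2 genes sufficed for entry. In the 17 nerve sheath cells of the other libraries Gpx3 stood at 453 CPM, against 1117 CPM in other cells. For Hsd11b1 the log2 ratio was -3.46 at day 14 and -1.06 when 3 UMIs from 2 genes sufficed for entry. Gas1 had 0 UMIs in the 36 nerve sheath cells, against 115 CPM in other cells, which is at least 7.09-fold lower with 3 counts over the group as the floor.

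**Figure D3:**
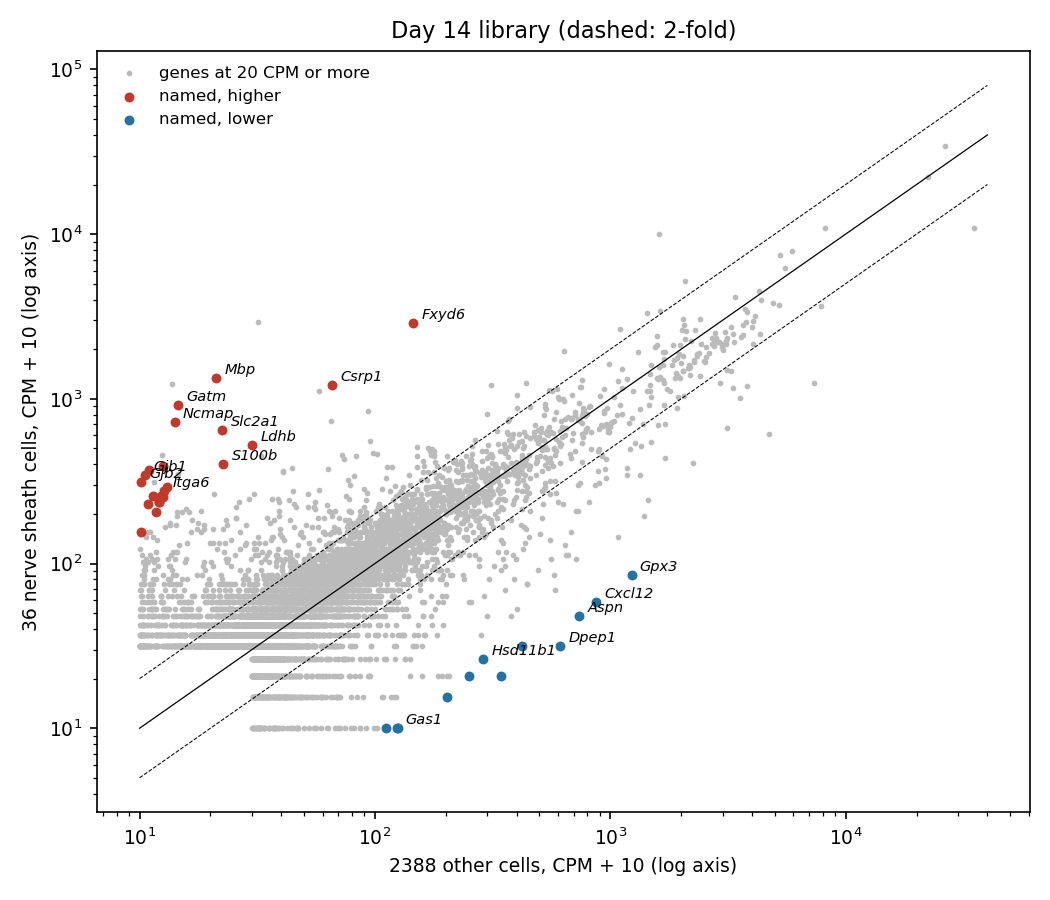
Each gene with at least 20 CPM in either group at day 14, as CPM plus 10 in the 36 nerve sheath cells (vertical) and the 2388 other cells (horizontal), both on log axes. Red points are the 22 genes named as highest and blue the 12 named as lowest; Fxyd6 stands at 2881 CPM in nerve sheath cells against 135 CPM in other cells and Cxcl12 at 48.5 CPM in nerve sheath cells against 863 CPM in other cells.

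In the day 14 library, all 10 perineurial genes outside the selection, listed with earlier results of these data known, were higher in nerve sheath cells. Their median log2 ratio was 2.96 (0.25 over all genes tested), and all 10 were also higher without the cells with Schwann genes and with TMM scaling. Of 10 tight junction genes with at least 20 CPM, 8 were higher and 0 lower, among them the selection gene Cldn1 (13.2% of all genes were higher and 7.06% lower). With TMM scaling 7 of these 10 were higher and 2 lower, where 560 genes were higher and 837 lower over all. Tjp1, a junction scaffold, had 19 UMIs in 14 nerve sheath cells (102 CPM), against 20.9 CPM in other cells. Cgnl1, a junction adaptor, had 20 UMIs (108 CPM, against 12.9 CPM in other cells), and Ocln, occludin, had 8 UMIs in 7 cells (43.2 CPM, against 0.245 CPM in other cells). Cldn11, a claudin, was at 108 CPM in nerve sheath cells against 23.2 CPM in other cells, and over all libraries its 21 UMIs lay in 9 of the 19 cells without Itgb4 and Tenm2, against 0 UMIs in the other sets.

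Of 11 hemidesmosome and laminin receptor genes 5 were higher and 0 lower, the selection gene Itgb4 included (13.2% of all genes were higher). Besides Itgb4 and Itga6 they were Bcam (156 CPM in nerve sheath cells against 2.94 CPM in other cells), Itga7, another laminin-binding integrin (70.1 CPM in nerve sheath cells against 3.34 CPM in other cells), and the tetraspanin Cd151 (378 CPM in nerve sheath cells against 103 CPM in other cells). Of 13 genes of the basement membrane, which these receptors bind, 2 were higher, a share close to the 13.2% of all genes. These were Col18a1 (264 CPM in nerve sheath cells against 34.8 CPM in other cells) and Egflam (43.2 CPM in nerve sheath cells against 1.30 CPM in other cells). The 4 genes lower were Lamb1, Nid1, Col4a1 and Col4a2, a collagen IV chain at 97.1 CPM in nerve sheath cells against 341 CPM in other cells. With TMM scaling 6 were lower, and with the libraries pooled 5 were higher and 0 lower. The summed level of the whole list in other cells was 3619 CPM at day 14 and 1865 CPM pooled. In nerve sheath cells it was 2341 and 2294 CPM, so the pooled counts differ mainly by the other cells of earlier libraries.

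Of 23 interstitial matrix genes 17 were lower in nerve sheath cells and 1 was higher (7.06% of all genes were lower and 13.2% higher). With TMM scaling 17 were lower and 0 higher. Col3a1, fibrillar collagen III, stood at 1235 CPM in nerve sheath cells against 7314 CPM in other cells, and Eln, elastin, at 21.6 CPM in nerve sheath cells against 411 CPM in other cells. Dcn, the proteoglycan decorin, stood at 22069 CPM in nerve sheath cells against 22311 CPM in other cells and was in all 36 nerve sheath cells. All 8 epineurial and adventitial fibroblast genes were lower, Clec3b at 604 CPM in nerve sheath cells against 4711 CPM in other cells and Dpt at 135 CPM in nerve sheath cells against 1073 CPM in other cells, and 7 of the 8 were lower without the cells with Schwann genes and 5 with the libraries pooled. Of 6 endoneurial fibroblast genes 3 were higher, namely Matn2, a matrilin (421 CPM in nerve sheath cells against 64.1 CPM in other cells), the transcription factor Etv1 (162 CPM in nerve sheath cells against 13.5 CPM in other cells) and Sox9 (53.9 CPM in nerve sheath cells against 16.5 CPM in other cells), and 2 were lower, Meox1 and Ccl11. With TMM scaling 2 were higher. Of 16 matrix protease and inhibitor genes 10 were lower and 0 higher (5 and 2 with the libraries pooled), among them Adamts5, an aggrecan-cleaving protease (75.5 CPM in nerve sheath cells against 566 CPM in other cells).

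Of 11 transporter genes of nutrients and barriers 8 were higher and 0 lower, Slc27a1 of the selection included (13.2% of all genes were higher). With TMM scaling 6 were higher. Beside Slc2a1, they included Slc1a3, a glutamate carrier (178 CPM in nerve sheath cells against 15.6 CPM in other cells), Slc6a13, a GABA and taurine carrier (151 CPM in nerve sheath cells against 7.58 CPM in other cells), and Abcb1a, the efflux pump P-glycoprotein, with 12 UMIs in 8 nerve sheath cells (64.7 CPM, against 0.489 CPM in other cells). Slc16a1, a carrier of lactate and other monocarboxylates, had 16 UMIs in 4 nerve sheath cells, 11 of them in 1 cell (86.3 CPM, against 14.3 CPM in other cells). The aquaporin Aqp1 had 0 UMIs in the 36 cells.

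**Figure D4:**
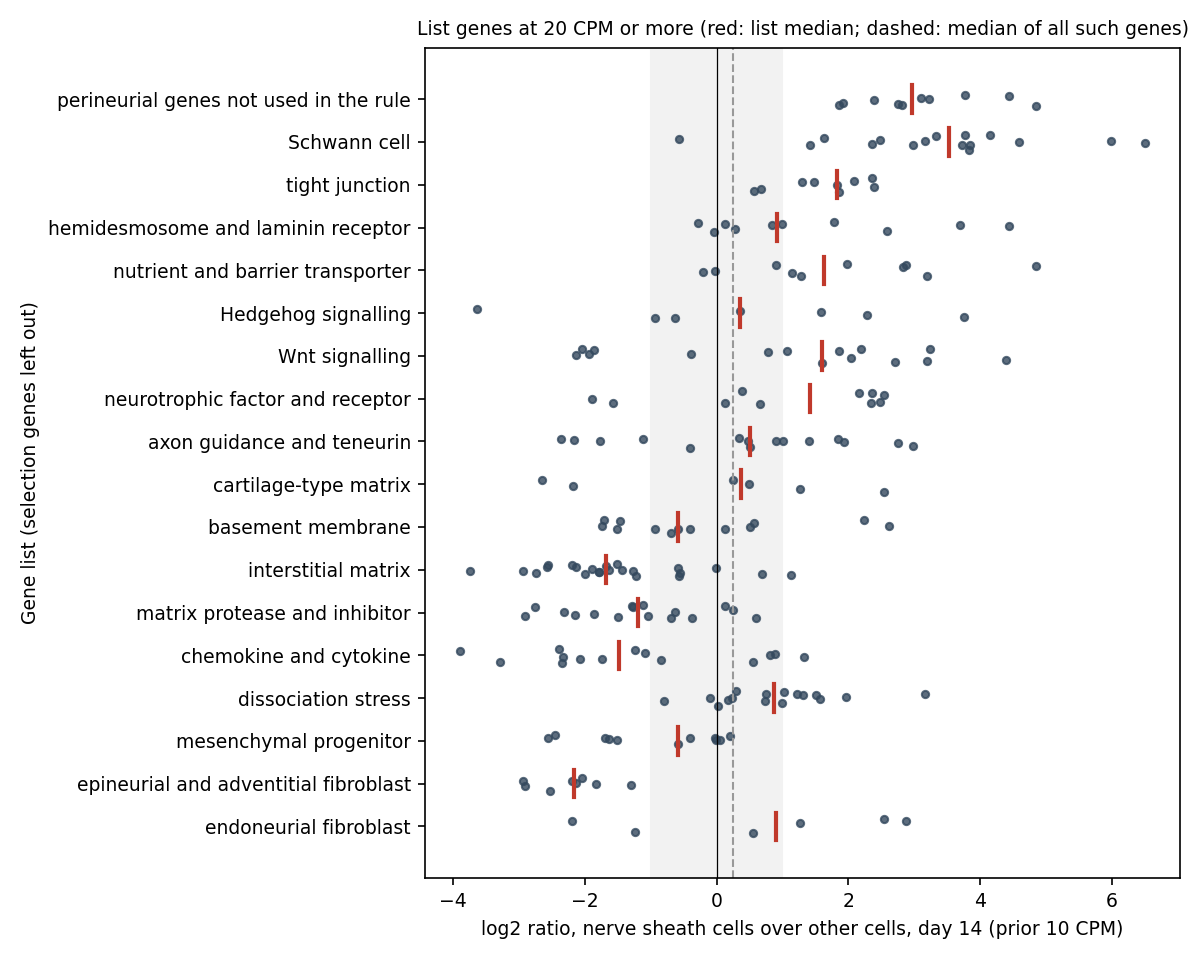
Log2 ratio at day 14, nerve sheath cells over other cells with a prior of 10 CPM, for each gene of 18 lists with at least 20 CPM in either group (points; red lines are list medians, the grey band is less than 2-fold, and the dashed line is the median of all such genes, 0.25). Selection genes are left out, so medians of lists that hold one differ from counts that include it; the perineurial list has a median of 2.96 and the epineurial list one of -2.17.

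In Hedgehog signalling the ligands Dhh, Shh and Ihh had 0 UMIs in nerve sheath cells of day 14. Of 7 genes of this list with at least 20 CPM, 3 were higher, Ptch1 and Gli1 among them (13.2% of all genes were higher and 7.06% lower). Ptch1, the receptor and itself a target of the pathway, had 36 UMIs in 15 of 36 nerve sheath cells (194 CPM), against 5.14 CPM in other cells. Gli1, a transcription factor and target of the pathway, had 10 UMIs in 8 cells (53.9 CPM, against 3.18 CPM in other cells). The co-receptor Gas1, which helps ligand binding, was the 1 gene lower, and with TMM scaling 3 were higher and 3 lower. Over all libraries Ptch1 was at 358 CPM in the cells with Itgb4 or Tenm2, 39.9 CPM in the cells without both and 285 CPM in the cells with Schwann genes, against 4.99 CPM in other cells weighted to the same libraries.

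Of 15 Wnt pathway genes 9 were higher and 4 lower (13.2% and 7.06% of all genes). Sfrp5, a secreted Wnt inhibitor, had 46 UMIs in 11 of 36 nerve sheath cells (248 CPM, against 2.28 CPM in other cells), Dkk3, a Dickkopf family protein, had 30 UMIs in 16 cells (162 CPM, against 8.72 CPM in other cells), and Wnt6 had 18 UMIs in 12 cells (97.1 CPM, against 1.30 CPM in other cells). Nkd1, an inhibitor that Wnt signalling induces, had 12 UMIs in 9 cells (64.7 CPM, against 1.39 CPM in other cells). The inhibitors Sfrp2, Sfrp4 and Dkk2 and the ligand Wnt2 were lower. Dkk3 and Wnt6 lay in different sets, Dkk3 with 28 UMIs in 14 of the 19 cells without Itgb4 and Tenm2 and Wnt6 with 0 UMIs there.

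Of 10 neurotrophic genes 5 were higher and 2 lower, and with the libraries pooled 8 were higher and 0 lower. Gfra1, the receptor for glial cell line-derived neurotrophic factor, had 47 UMIs in 21 of 36 nerve sheath cells (254 CPM, against 41.8 CPM in other cells), while Ret, its signalling partner, had 0 UMIs, against 27.2 CPM in other cells. Ngfr, the low-affinity neurotrophin receptor, had 12 UMIs in 7 cells (64.7 CPM, against 3.34 CPM in other cells). Bmp7, a secreted morphogen, had 23 UMIs in 12 cells (124 CPM, against 13.0 CPM in other cells), and over all libraries 26 of its UMIs lay in 13 of the 19 cells without Itgb4 and Tenm2, against 1 UMI in the 25 with either. Gfra1 was spread over the 3 sets, at 215, 230 and 301 CPM. Of 16 axon guidance and teneurin genes 7 were higher, the selection gene Tenm2 included (13.2% of all genes were higher and 7.06% lower). Among the 7 were Efnb1, an ephrin (173 CPM in nerve sheath cells against 13.2 CPM in other cells), Nrp2, a semaphorin receptor (64.7 CPM in nerve sheath cells against 9.46 CPM in other cells), and Ntng1, a netrin-like membrane protein (64.7 CPM in nerve sheath cells against 1.06 CPM in other cells). The 4 genes lower included Sema3c (59.3 CPM in nerve sheath cells against 347 CPM in other cells).

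Over all genes 13.2% were higher and 7.06% lower. Of 14 chemokine and cytokine genes 9 were lower and 1 was higher, Il33, an alarmin cytokine (437 CPM in nerve sheath cells against 169 CPM in other cells). Ccl7, a monocyte attractant, stood at 10.8 CPM in nerve sheath cells against 193 CPM in other cells. Of 10 interferon response genes 3 were lower and 0 higher. With TMM scaling 6 were lower, where 837 genes were lower over all, against 494 without it. Of 16 dissociation stress genes 7 were higher and 0 lower, among them Nr4a1, an orphan nuclear receptor (831 CPM in nerve sheath cells against 83.9 CPM in other cells), and Socs3 (1246 CPM in nerve sheath cells against 430 CPM in other cells); with TMM scaling 4 were higher and 1 lower, and with the libraries pooled 14 were higher and 0 lower. None of the 20 G2/M phase genes reached 20 CPM.

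Markers of other cell types were checked in the same library. Of 16 Schwann cell genes 15 were higher in nerve sheath cells (13.2% of all genes were higher). Without the 7 cells with Schwann genes 5 were higher and 2 lower (13.8% and 7.71% of all genes). Their sum over all libraries was 657 CPM in the cells with Itgb4 or Tenm2, 1338 in the cells without both and 24010 in the cells with Schwann genes, against 744 CPM in other cells weighted to the same libraries. S100b, a calcium-binding protein of glia, lay in 8 of the 19 cells without Itgb4 and Tenm2 (62 UMIs, 35 of them in 1 cell) and in 3 of the 25 with either (3 UMIs). Among endothelial genes Cdh5, a cadherin, had 19 UMIs in 14 nerve sheath cells, while Cldn5, Emcn, Egfl7, Esam, Tie1 and Flt1 had 0 UMIs, Kdr had 1 and Pecam1 4. Of the 10 immune genes 8 had 0 UMIs in any nerve sheath cell, and of the 8 epithelial and mesothelial genes 7 had 0. Mcam (53.9 CPM in nerve sheath cells against 0.897 CPM in other cells) and Cspg4 (80.9 CPM in nerve sheath cells against 18.8 CPM in other cells) were the 2 mural genes higher, while Myh11 and Notch3 had 0 UMIs at day 14.

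The nerve sheath cells carried the lineage label. tdTomato stood at 1926 CPM in 35 of the 36 nerve sheath cells of day 14, against 1670 CPM in other cells (1.15-fold, 1.04 to 1.28). CreERT2 had 0 UMIs in nerve sheath cells and 1 UMI in all the other cells of day 14, so it was barely detected in either. Hic1 stood at 37.8 CPM in nerve sheath cells against 36.0 CPM in other cells (7 UMIs in nerve sheath cells). Of 11 mesenchymal progenitor genes 5 were lower and 0 higher. Ly6a, the surface antigen Sca-1, stood at 399 CPM in nerve sheath cells against 2237 CPM in other cells, and it was in 10 of 36 nerve sheath cells and 92.5% of other cells. Of its 74 UMIs, 66 lay in 2 of the 36 nerve sheath cells, of 14510 and 12998 UMIs, and 8 in the other 34. These 2 cells, both without Itgb4 and Tenm2, also held 106 of the 112 UMIs of Clec3b and 144 of the 229 UMIs of Col3a1 at day 14. Pdgfra (248 CPM in nerve sheath cells against 252 CPM in other cells) and Cd34 (1111 CPM in nerve sheath cells against 1470 CPM in other cells) differed by less than 2-fold as sums, and in nerve sheath cells they lay mainly in the cells without Itgb4 and Tenm2.

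The 17 nerve sheath cells of the other 4 libraries had no part in the day 14 ratios, though the same rule chose them. With the other cells weighted to the same libraries, all 22 genes named as highest at day 14 were again above the other cells, and all 12 named as lowest were again below them. Some of the 22 rested on few UMIs, such as Gjb1 (1 UMI in 1 cell), Coch (4 in 1 cell) and Plekhb1 (4 in 4 cells). Others had more, such as Fxyd6 (123 UMIs in 17 cells). Of the 12 lowest, 7 were detected in these cells, and the rest were below by having no UMI. Slc2a1 stood at 437 CPM in these 17 nerve sheath cells, against 11.8 CPM in other cells, Itga6 at 356 CPM in nerve sheath cells against 1.15 CPM in other cells, Fxyd6 at 1992 CPM in nerve sheath cells against 97.8 CPM in other cells, and Ly6a at 113 CPM in nerve sheath cells against 2500 CPM in other cells. Of all 927 genes called higher at day 14, 668 were above the other cells in these libraries and 255 below, and of the 494 called lower, 428 were below and 66 above. Over all 6997 genes 3438 were above and 3555 below.

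Library by library, Fxyd6 had a UMI in all 10 quiescent nerve sheath cells, in the 1 of day 1, the 4 of day 2, the 2 of day 4 and 35 of the 36 of day 14. Its level in nerve sheath cells was 2105, 820, 849, 4667 and 2881 CPM in that order, and in the other cells 71.0, 29.1, 81.9, 228 and 135 CPM, so the nerve sheath cells were the higher group in each library. Slc2a1 was in 4 of 10 quiescent nerve sheath cells (337 CPM), 0 of 1 at day 1, 4 of 4 at day 2 (519 CPM), 2 of 2 at day 4 (747 CPM) and 21 of 36 at day 14 (637 CPM). In the other cells its level ran between 7.82 CPM in the quiescent library and 27.0 CPM at day 1. Ly6a was in 1 of 10, 0 of 1, 2 of 4, 1 of 2 and 10 of 36 nerve sheath cells of the libraries in time order, and in at least 92.5% of the other cells of every library. tdTomato was in all nerve sheath cells but 1 at day 4 and 1 at day 14. With 1 to 10 nerve sheath cells in each library before day 14, these values rest on few UMIs, such as 5 of Fxyd6 at day 1, and no change over time was read from them.

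By library, nerve sheath cells were 0.468% of quiescent cells (10 of 2138, interval 0.225 to 0.858%). On day 1 they were 0.0208% (1 of 4816, 0.000526 to 0.116%). On day 2 they were 0.157% (4 of 2549, 0.0428 to 0.401%), and on day 4 they were 0.0487% (2 of 4107, 0.00590 to 0.176%). On day 14 they were 1.04% (36 of 3475, 0.727 to 1.43%). The intervals of days 1, 2 and 4 overlapped, those of day 2 and the quiescent library overlapped, and the interval of day 14, the highest share, overlapped that of the quiescent library alone. Depth differed between the libraries and was lowest in the quiescent one. Cells with at least 2500 UMIs were also thinned to 2500, and cells with fewer were left out. The quiescent share was then 0.123% (2 of 1626 cells), that of day 1 was 0%, that of day 2 was 0.0785%, that of day 4 was 0.0248% and that of day 14 was 0.769% (22 of 2861 cells). Median depth in the quiescent library was 2465.5 UMIs in nerve sheath cells, under this limit, and 3886 UMIs in other cells. The thinned quiescent share therefore also reflects nerve sheath cells left out. A share of sorted cells also depends on how many other cells were sorted, so it gives no number of nerve sheath cells in the muscle. Col9a2 had UMIs in nerve sheath cells of the quiescent (3 cells) and day 14 (15 cells) libraries and 0 in the 7 nerve sheath cells of days 1, 2 and 4.

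**Figure D5:**
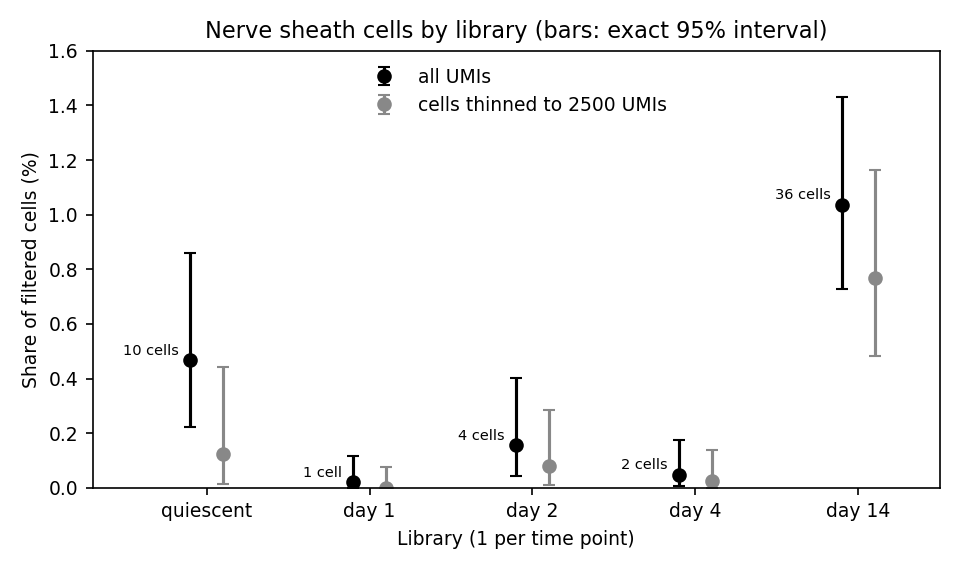
Share of filtered cells that were nerve sheath cells in each library, with exact 95% intervals (counting error only), for all UMIs (black, with cell numbers) and for cells thinned to 2500 UMIs (grey, cells with fewer UMIs left out). The day 14 share is 1.04% with all UMIs and 0.769% thinned.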

How the data were processed

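For each library the authors deposited a matrix of UMI counts, whole numbers with no scaling. Per the submitters' processing notes, Cell Ranger and mm10 were used; for the version of Cell Ranger and its cell calling, nothing is given in the sources used here. Each barcode was taken as 1 cell. No doublet caller was run, so doublets remain. Counts were summed over the nerve sheath cells and over the other cells of a library and scaled to CPM, counts per 1000000 UMIs. A prior of 10 CPM was added to each group before the log2 ratio, and a gene was called higher or lower at 2-fold or more with at least 20 CPM in the higher group. Intervals are exact at the 95% level (conditional binomial for ratios, Clopper-Pearson for shares) and cover counting error only. A gene at 0 was given a floor of 3 counts per group. With 1 library per time point no test was made.

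Ratios were planned within every library of at least 20 nerve sheath cells, and a comparison of such libraries with the quiescent one. Day 14 alone reached 20, so that comparison was not made. Named genes were those ranked highest (25, of which 22 are reported here) and lowest (12) by log2 ratio at day 14 with at least 50 CPM in the higher group, leaving out selection and exclusion genes, predicted genes and genes of haemoglobin, of ribosomal proteins and of the mitochondrial genome, plus Hic1, Pdgfra, Ly6a, Cd34, tdTomato and CreERT2, and up to 4 genes of each of 31 lists. Genes singled out within the member sets, and further list genes, were chosen after their values were seen. The members and the lists were chosen with earlier results of these data known.

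Cells were also clustered without the 6 selection genes (scanpy 1.11.5, 2000 variable genes, 30 principal components, 15 neighbours, leidenalg 0.10.2 at resolution 1). The analysis used python 3.11.15 and scipy 1.17.1, and edgeR 4.0.16 and DESeq2 1.42.0 (R 4.3.3) served only for scaling factors. The alternatives covered the selection limits, exclusion, depth, scaling, prior, minimum CPM, cells of highest UMI total and cells with Schwann genes.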

Additional observations from a re-analysis of the deposited data

How the results depend on the processing

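No paired analysis was possible because each time point was 1 library with no replicate number. With TMM factors 560 genes were higher and 837 lower in nerve sheath cells at day 14, with DESeq2 factors 569 and 814, against 927 and 494; higher genes were 40.1% and 41.1% of calls under these scalings and 65.2% without them. A prior of 1 CPM gave 1414 higher and 661 lower, and a prior of 50 CPM gave 268 higher and 174 lower. Pooling the 17 cells of the other 4 libraries gave 1427 higher and 1032 lower, an alternative chosen after seeing the data. Without the members with Schwann genes 965 genes were higher and 540 lower, of which 681 and 402 were shared with the day 14 calls. In that setting the log2 ratios of Mbp (-1.08) and Fxyd3 (-0.33) reversed. Requiring 6 UMIs from 4 genes gave a quiescent share of 0.187%, a day 1 share of 0% and a day 14 share of 0.374%. Without Slc27a1 the day 14 share was 0.662%. Thinning to 2500 UMIs, which left out cells with fewer, gave a quiescent share of 0.123% and a day 1 share of 0%. The cause of the other changes was not tested. The limit of 6 UMIs from 4 genes left under 20 members in every library, and leaving out day 14 left no library with 20, so neither gave ratios within a library, and the comparison of days with the quiescent library and its alternatives could not be made.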
